A study of Rattus norvegicus with 2 samples.

Results

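Fibrillar collagen is modified and checked inside the endoplasmic reticulum before it is secreted, and it is crosslinked outside the cell. The genes described here encode those steps: the catalytic alpha subunits of collagen prolyl 4-hydroxylase (P4ha1, P4ha2 and P4ha3), the lysyl hydroxylases (Plod1, Plod2 and Plod3), the lysyl oxidases (Lox, Loxl1 and Loxl2) and the collagen chaperone Serpinh1, also called HSP47. They were chosen by name and found on the array by the RefSeq accession of each probe that is no control probe. Of the 10 genes 9 were matched, out of 15164 genes with a symbol on the array. Lox matched no probe by this route and was not analysed here.

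Prolyl 4-hydroxylation lets the collagen triple helix hold at body temperature, and lysyl hydroxylation sets which crosslinks can form. Both families of hydroxylases use iron, oxygen and 2-oxoglutarate, and ascorbic acid keeps their iron in the reduced state. Serpinh1 binds the folded triple helix until it leaves the endoplasmic reticulum, and the lysyl oxidases, which are copper enzymes, turn lysines into the aldehydes from which crosslinks form. Odontoblasts, the cells that arise from the dental papilla, lay down a collagen matrix that mineralizes as dentin.

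The series compared primary rat dental papilla cells, the mesenchymal cells of the tooth germ, from animals at postnatal day 1 to 3. Both groups spent 3 days in a medium that induces odontogenic differentiation (OS), with 0.2 mM ascorbic acid, 10 mM β-glycerophosphate, dexamethasone (0.1 mM as labelled) and 8% serum. The OS group received no melatonin, and the other group received 10 nM melatonin in the same medium. Each group was read by 1 one-colour Agilent array, and the sources used here do not say if the RNA came from 1 culture or several. Ascorbic acid, the hydroxylase cofactor, was in both media, so none of the values below compares cells with and without it.

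With 1 array per group there is no spread between cultures, no test was possible and no p-value is given. Every ratio compares these 2 arrays. Well above background were 55.3% of the 30367 probes in OS and 48.4% with melatonin. The processed signals had a 75th percentile of 428 (OS) and 329 (melatonin). Signals are given below as scaled signals, the processed signal divided by that percentile, and log2 ratios set melatonin over OS. Over the 8231 genes measured, which means well above background on each array, the median log2 ratio was 0.04 and the SD across genes 0.29. Of the dental mesenchyme markers 11 of 12 were measured, among them Msx1, Pax9, Lhx8 and Vim. Of 7 epithelial markers Tp63 alone was measured on both arrays, and its 2 probes gave log2 ratios of -0.50 and 0.45.

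RefSeq entries of build GRCr8 held the promoters of 8 of the 10 genes. The 250 bases before the start site are shown for P4ha1, P4ha2 and Plod2, which are known targets of the hypoxia-inducible factors, for Serpinh1, a known target of the heat shock factors, and for Loxl1, which had the highest ratio of the 9. They are written 5′ to 3′ on the gene's own strand. Capitals mark the core of the hypoxia element (ACGTG or GCGTG, either strand) in the first 4 and the heat shock element (GAANNTTC or TTCNNGAA, which overlap each other) in Serpinh1. The regions are chr20:27844796-27845045, plus strand, for P4ha1, chr10:38743644-38743893, plus strand, for P4ha2, chr8:101964068-101964317, plus strand, for Plod2, chr8:67612225-67612474, minus strand, for Loxl1, and chr1:163062977-163063226, minus strand, for Serpinh1.
P4ha1: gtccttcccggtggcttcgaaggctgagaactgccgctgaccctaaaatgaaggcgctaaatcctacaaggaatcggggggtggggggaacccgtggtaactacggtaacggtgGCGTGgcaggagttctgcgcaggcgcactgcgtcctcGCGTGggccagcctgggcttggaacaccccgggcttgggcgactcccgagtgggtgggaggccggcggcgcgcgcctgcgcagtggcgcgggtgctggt
P4ha2: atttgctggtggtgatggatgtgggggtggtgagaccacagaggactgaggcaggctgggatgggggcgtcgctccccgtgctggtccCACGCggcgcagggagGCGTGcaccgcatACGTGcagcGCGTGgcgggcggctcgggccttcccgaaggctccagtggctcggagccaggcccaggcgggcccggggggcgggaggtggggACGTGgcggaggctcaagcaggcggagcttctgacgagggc
Plod2: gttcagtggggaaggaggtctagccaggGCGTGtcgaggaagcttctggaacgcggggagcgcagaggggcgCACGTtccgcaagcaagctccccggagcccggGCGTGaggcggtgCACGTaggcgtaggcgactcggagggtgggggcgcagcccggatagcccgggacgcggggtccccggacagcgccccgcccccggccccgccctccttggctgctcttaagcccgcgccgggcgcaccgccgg
Loxl1: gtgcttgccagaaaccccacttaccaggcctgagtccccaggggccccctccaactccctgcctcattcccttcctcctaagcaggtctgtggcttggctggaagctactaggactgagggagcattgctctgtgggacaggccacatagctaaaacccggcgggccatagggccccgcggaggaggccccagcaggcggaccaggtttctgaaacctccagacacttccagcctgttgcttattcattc
Serpinh1: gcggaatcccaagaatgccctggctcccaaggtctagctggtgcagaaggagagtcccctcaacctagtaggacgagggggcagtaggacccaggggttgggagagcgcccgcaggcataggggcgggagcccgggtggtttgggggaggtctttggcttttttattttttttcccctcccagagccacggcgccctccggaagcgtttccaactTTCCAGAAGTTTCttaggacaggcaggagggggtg

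The hypoxia core occurred 2 times in the P4ha1 window, 5 times in that of P4ha2 and 4 times in that of Plod2, and Plod1 and Plod3 held 1 match each. Among all 33469 promoter windows of this length 36.7% held at least 1 match, 16.02% at least 2 and 2.44% at least 4. These letters contain CG, and the windows of P4ha2 and Plod2 had a GC content of 72.4% and 74.8%, against a median of 51.2% over all windows. The core letters were not in the windows of Loxl1, P4ha3 and Serpinh1. The Serpinh1 window held the heat shock letters as a run of 3 alternating units that starts 35 bases before the start site. Heat shock matches, by the same search, stood in 13.5% of all windows, and in those of P4ha2, Plod1 and Plod2 too. A TATA box (TATAAA) was in none of the 8 windows and in 12.9% of all. A match describes the letters and does not show that a factor binds there.

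All 9 matched genes were well above background on both arrays, each by 1 probe printed as 1 spot. None differed by 1.5-fold, the threshold used here, in either direction. Over all measured genes 2.03% were higher and 2.64% lower at that threshold, which is 167 and 217 genes (116 and 249 with loess normalization). Loxl1 stood highest at 1.32-fold and Plod1 lowest at a log2 ratio of -0.33. At a looser threshold of 25% between the brighter and the dimmer array, 1 of the 9 was higher (Loxl1, against 10.1% of all genes) and 1 lower (Plod1, against 7.85% of all genes), which is near those shares. Plod1 fell inside that threshold with scaling by the median of detected probes and with the authors' values, at -0.31 in both. Below 0 lay 6 of the 9 ratios, where 42.4% of all genes did. The median log2 ratio of the 9 was -0.11. In RNA from a whole culture, fewer cells that express a gene and less RNA of it per cell cannot be told apart.

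**Figure D1:**
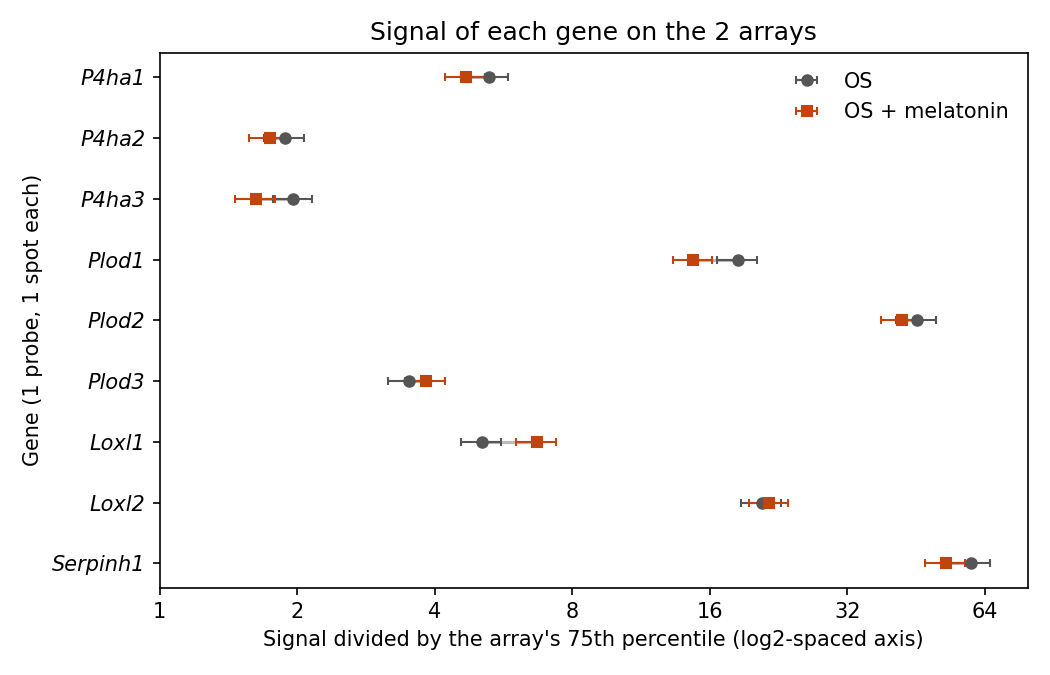
Scaled signal of the 9 genes on the OS array (circles) and the melatonin array (squares), on an axis with log2 spacing; bars are the error that the extraction software assigned, 10.0% of a signal or slightly more. The symbols of Loxl1 and Plod1 are the most separated, and brightness does not rank the genes against each other because each has its own probe.

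All 3 prolyl 4-hydroxylase alpha subunits had ratios below 0, where 42.4% of all genes lay. Measured against the SD between spots, P4ha1 lay 1.03, P4ha2 0.67 and P4ha3 1.72 such SDs from 0. P4ha1, the subunit found in most cell types, had scaled signals of 5.26 in OS and 4.69 with melatonin, a log2 ratio of -0.17. P4ha2, the subunit known from cartilage and bone cells, had 1.88 and 1.74, a log2 ratio of -0.11. P4ha3 had 1.96 and 1.62, a log2 ratio of -0.27. For each subunit the melatonin array was the lower one, by 1.12-fold, 1.08-fold and 1.21-fold. The subunits' ratios differed from each other by at most 0.17, less than the error of such a difference from spots alone (SD 0.22), so no subunit stood apart from the other two. The array gave all 3 paralogs a signal well above background in both media.

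The 3 lysyl hydroxylases had ratios on both sides of 0 in the setting used, and all 3 lay below 0 with normexp background correction. Plod1, which hydroxylates lysines in the triple helix, had scaled signals of 18.5 in OS and 14.7 with melatonin, a log2 ratio of -0.33. Plod2, which hydroxylates the lysines of the telopeptides, had 45.5 and 42.2, a log2 ratio of -0.11. Plod3, which also adds sugars to hydroxylysine, had 3.51 and 3.83, a log2 ratio of 0.13 (-0.08 with normexp correction). Plod2 and Plod3 lay within 1 spot SD of 0 in the setting used, and Plod2 was at -0.21 with normexp correction. The ratios of Plod1 and Plod3 differed by 0.45, which was 2.02 times the spot error of that difference. With normexp correction that difference was 0.27, and it was the largest of the 7 pairs of paralogs in the setting used but not with that correction, where Loxl1 and Loxl2 differed by 0.29.

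Of the lysyl oxidases, Loxl1 and Loxl2 had ratios above 0 and Loxl3 a ratio below 0. Loxl1, which acts on elastin and is needed to maintain elastic fibres, had scaled signals of 5.08 in OS and 6.71 with melatonin, a log2 ratio of 0.40. Its ratio was higher than that of 93.9% of all measured genes. Loxl2, an enzyme that acts on basement membrane and fibrillar collagens, had 20.8 and 21.6, a log2 ratio of 0.05 that lay near the median of all genes. Loxl1 exceeded Loxl2 by 0.35, or 1.51 times the spot error of that difference. The other paralogs were in a list of neighbouring genes: Loxl3 had 1.32 and 1.19, a log2 ratio of -0.15 (0.03 with normexp background correction), and Loxl4 was well above background in OS alone, at scaled signals of 0.067 and 0.089, which allow no fold.

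Serpinh1, the chaperone, was bright on both arrays, with scaled signals of 59.6 in OS and 52.6 with melatonin. Its log2 ratio was -0.18, lower by 1.13-fold. This lay inside 2 times the spot SD and was within the range of the P4ha subunits.

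The error of a single spot can be read from probes that the array carries 10 times. Among 1033 such probes the spots of one probe had log2 ratios with an SD of 0.16 (median over probes). The 100 of these probes nearest in signal to each gene gave SDs of 0.15 to 0.16. In these units the ratio of Loxl1 was 2.46 times the spot SD, that of Plod1 2.00 and that of P4ha3 1.72, and the other 6 lay between 0.32 and 1.1. The software's own error, 10.0% of each signal, gives a log2 ratio an error of 0.20, which puts Loxl1 and Plod1 at less than 2 such errors. Neither error covers the difference between 2 cultures of the same treatment. Across the 6352 genes read by 1 spot the SD of the ratios was 0.31, and 11.6% of all measured genes had a ratio larger in size than that of Loxl1.

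**Figure D2:**
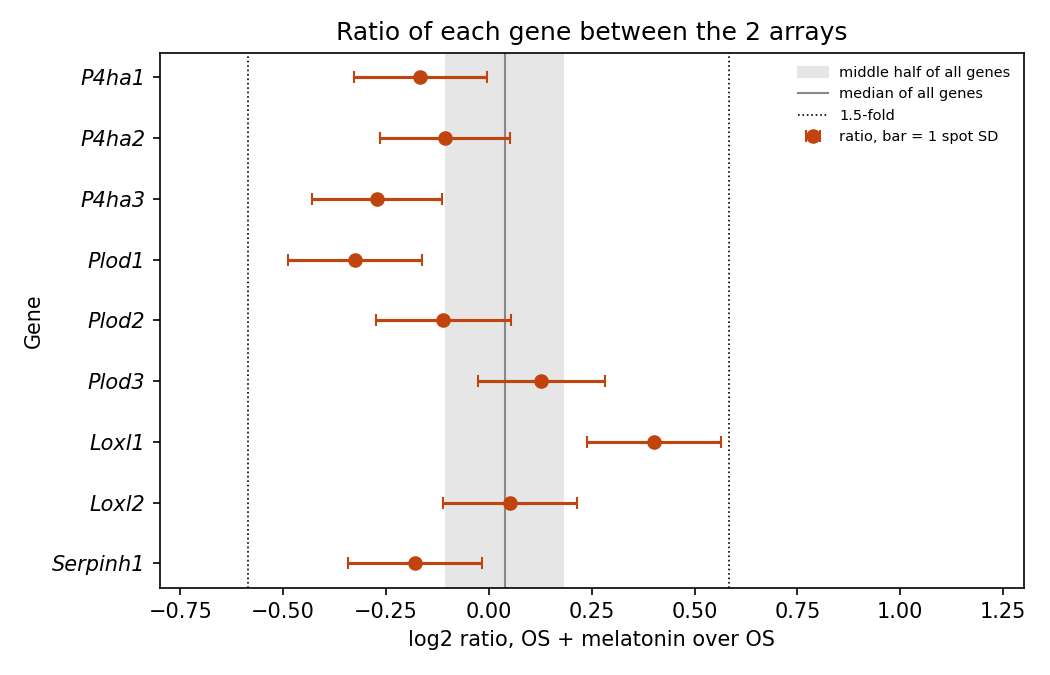
Log2 ratio of the melatonin array over the OS array for the 9 genes; bars are 1 spot SD from repeated probes of similar signal, the grey band spans the quartiles of 8231 genes (-0.10 to 0.18), and dotted lines mark 1.5-fold. Loxl1 at 0.40 and Plod1 at -0.33 lie outside the band on opposite sides, and no gene reaches a dotted line.

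The partners that work with these enzymes lay mostly above 0 in the setting used, as did Plod3, Loxl1 and Loxl2. Of 9 listed genes for hydroxylase partners and prolyl 3-hydroxylation 8 were measured. Of these 7 had a ratio above 0, where 57.6% of all genes did, and the median was 0.13. With normexp background correction 4 of the 8 lay above 0 and their median was 0.01. The median of all genes was 0.09 with that correction. P4hb, the beta subunit that forms the prolyl 4-hydroxylase tetramer with the alpha subunits, had scaled signals of 34.4 and 37.8, a log2 ratio of 0.13. P4hb turned to -0.08 with normexp correction, so it is uncertain that its sign is opposite to that of the alpha subunits. Crtap, which forms a complex with P3h1 and cyclophilin B, had the highest ratio of the list at 0.44, and its 2 probes gave 0.41 and 0.46. Ppib, which encodes cyclophilin B, had a log2 ratio of 0.17 (-0.08 with that correction), and P3h1, the prolyl 3-hydroxylase, 0.02, from probes that differed in sign (-0.14 and 0.19). Fkbp10, a prolyl isomerase needed for telopeptide lysyl hydroxylation by Plod2, was the lowest at -0.18. None of these 8 passed 1.5-fold.

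Among the 9 measured genes for folding and export, 5 lay above 0, where 57.6% of all genes did, and the median was 0.09. Fkbp14, a prolyl isomerase whose loss in humans causes a form of Ehlers-Danlos syndrome like that of PLOD1 loss, had 4.28 and 6.38, a log2 ratio of 0.58 or 1.49-fold, just inside the threshold. Fkbp11 was the lowest at -0.35. Colgalt1, which attaches galactose to the hydroxylysines that lysyl hydroxylases make, had a log2 ratio of 0.34 from probes at 0.20 and 0.47; it was singled out with its value known.

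Of 12 genes for propeptide cleavage and other crosslinking 5 were measured, 4 of them below 0, where 42.4% of all genes lay. Their median of -0.09 turned to 0.01 if only a gene's brightest probe is read, and to 0.02 over 8 genes with no filter. Tgm2, a transglutaminase, was the highest at 0.10 and Loxl3 the lowest at -0.15. The list of ascorbate transport and related dioxygenases gave little. Slc2a1, a glucose transporter that also carries oxidized ascorbate, had 1.43 on both arrays (log2 ratio -0.0047, of uncertain sign, spot SD 0.28, 8 spots). Egln2, an oxygen-sensing prolyl hydroxylase of the same enzyme class, had a log2 ratio of -0.16. The ascorbate transporters Slc23a1 and Slc23a2 did not reach well above background on any array.

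The collagens on which the enzymes act were split. Of 6 measured fibrillar collagen genes 3 lay above 0, where 57.6% of all genes did. Their median of 0.07 turned to -0.06 over the 5 brighter genes. Col1a1 had scaled signals of 131 and 159, a log2 ratio of 0.28 with probes at 0.17 and 0.39, and Col1a2 had 131 and 120, a log2 ratio of -0.13. The 2 chains of type I collagen thus had ratios of opposite sign. Col3a1 was at -0.06 and Col5a1 at 0.23. Among 10 measured genes of elastic fibres and partners 4 were above 0 (median -0.09), and 5 with normexp correction (median -0.0017). Postn, periostin, a matricellular protein that aids collagen crosslinking, was 1.68-fold higher, the only gene of these lists above 1.5-fold. The elastic-fibre genes lay on both sides of 0. Eln, elastin, was at -0.11 and Fbln5, which brings Loxl1 to the fibre, at -0.08 (0.01 with normexp correction). Of the microfibril genes, Mfap5 was at 0.34 and Fbn1, fibrillin-1, at 0.29, but Fbn2 was at -0.13 and Mfap2 at -0.11. Mfap2 turned to 0.05 with normexp correction. Efemp2, fibulin-4, was at 0.25 (-0.01 with that correction). Emilin1, the lowest, was at -0.39.

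**Figure D3:**
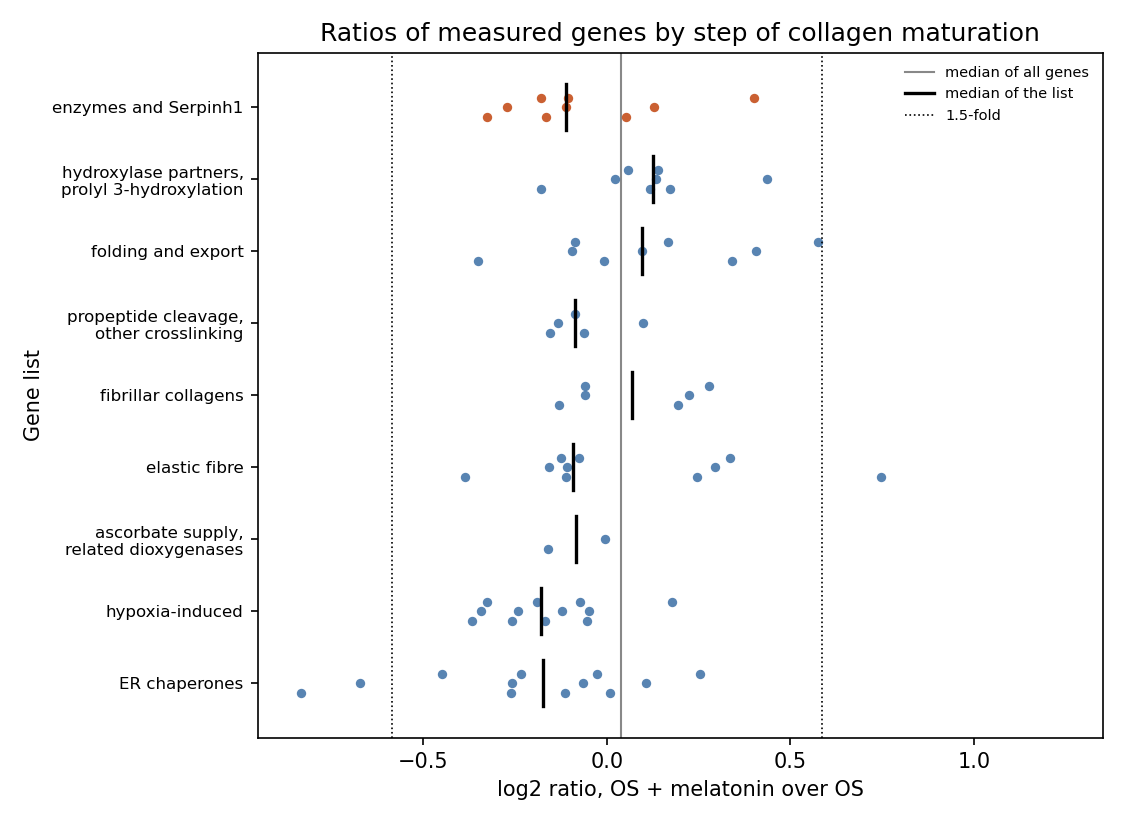
Log2 ratio of each measured gene (points) by gene list, with the list median as a black bar, the median of all genes (0.04) as a grey line and 1.5-fold as dotted lines. Left of the grey line lie the medians of the 9 genes (-0.11), hypoxia-induced genes with Hif1a (-0.18) and ER chaperones with Xbp1 (-0.17). Those of elastic fibre (-0.09), propeptide cleavage and other crosslinking (-0.09) and ascorbate supply (-0.08) lie there too. Right of it lie hydroxylase partners (0.13, or 0.01 with normexp background correction), folding and export (0.09) and fibrillar collagens (0.07).

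Hypoxia-induced genes are set beside the hydroxylases because P4ha1, P4ha2 and Plod2 are induced by the same factors. Of 12 listed genes, all measured and Hif1a among them, 11 had a ratio below 0, where 42.4% of all genes did. The median of the 12 was -0.18. With normexp correction 8 of the 12 lay below 0, where 33.3% of all genes did. Car9, which was dim, was the lowest at -0.37 and Adm, adrenomedullin, the highest at 0.18 (spot SD 0.09, 10 spots). Vegfa was at -0.34; with normexp correction Car9 was at -0.11 and Vegfa at -0.37. Ldha was at -0.33 and Bnip3 at -0.26. Hif1a, which encodes part of the factor itself and was listed with the induced genes, was at -0.19. Nearer to 0 were Aldoa at -0.06 and Ndrg1 at -0.05 (0.10 with normexp correction). The ratios of P4ha1, P4ha2 and Plod2 were -0.17, -0.11 and -0.11. The range of this list, -0.37 to 0.18, is wide. It held these ratios and those of all the other matched genes except Loxl1, so it does not set these hydroxylases apart. None of the 12 passed 1.5-fold. Whether the 2 sets of ratios are linked was not tested.

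A list of 12 genes of protein folding in the endoplasmic reticulum held chaperones, folding factors and the transcription factor Xbp1 (-0.45). Of these 9 lay below 0, where 42.4% of all genes did, with a median of -0.17. With normexp correction 8 of the 12 did, where 33.3% of all genes did. Sdf2l1, a co-chaperone, was 1.78-fold lower by 2 probes, and Hspa5, the chaperone BiP, was 1.59-fold lower with scaled signals of 75.9 and 47.6. Serpinh1, at -0.18, was lower by less than these. The highest of the list was Pdia6, a disulfide isomerase, at 0.25. Over the 8 lists 64 of 88 genes were measured, and 1 was higher and 2 were lower by 1.5-fold. Of all measured genes 2.03% were higher and 2.64% lower, so these counts are near those shares.

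Since each of the 9 genes rests on 1 probe, the genes of these lists with 2 measured probes show how far probes differ. In 3 of 12 such genes the probes disagreed in sign. The difference between the log2 ratios of 2 probes had a median of 0.18 and ran from 0.04 to 0.39. Cell type markers are not counted here. Among them the probes of Tp63 differed by 0.95 and those of Pax9 by 0.24, both with opposite signs. Those of Prrx1 (0.12) and Erg (0.11) had the same sign. In the setting used, Loxl1 alone among the 9 genes had a ratio above 0.39 in size, and none had one as large as the probe difference of Tp63.

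Most measured markers of other cell types also stood lower on the melatonin array, but many of them were dim. With the dimmest quartile of genes left out, 1 macrophage marker (Cd14, -0.07), 1 endothelial marker (-0.09) and 1 red cell marker (-0.21) remained. By that filter 2 skeletal muscle markers remained, with a median of -0.65. Of 7 macrophage markers 5 were measured and 4 were below 0 (3 with normexp correction), with a summed scaled signal of 3.37 and 2.42. Over all genes 42.4% lay below 0. Lyz2 was 5.54-fold lower, Laptm5 1.71-fold and Cd68 1.53-fold. Cd14, the brightest of the list, was almost level at 1.78 and 1.70 (log2 ratio -0.07). Csf1r went the other way at 0.20 by its 1 measured probe, while another probe was well above background in OS alone. With normexp correction Lyz2 had a log2 ratio of -1.49, and Laptm5 and Cd68 fell inside 1.5-fold. Tyrobp was well above background in OS alone. Its scaled signals of 0.20 and 0.097 differ 2.07-fold, a plain ratio that rests on a dim melatonin spot. Ptprc, the defining macrophage marker, did not reach well above background. Of 6 skeletal muscle markers the 3 measured were lower (summed scaled signal 14.8 and 9.77), with Actc1 1.51-fold and Myh8 1.63-fold lower, and Myh7, Des and Myog were well above background in OS alone. Myh7 was at least 5.01-fold and Des at least 1.34-fold lower, and Myog allows no fold. Of 6 endothelial markers the 3 measured were below 0, 1 of them with normexp correction (1.54 and 1.41), and Sox18 was the lowest at -0.39 (0.04 with that correction), and Pecam1 and Kdr were well above background in OS alone, at least 2.59-fold and 1.98-fold lower. Of 4 red cell markers 2 were measured (5.80 and 4.78), with Hbb 3.31-fold lower, a value (log2 ratio -0.69 with normexp correction) that is uncertain because globin genes are near-identical. Of the epithelial list the 1 measured gene had 0.70 and 0.68, and Krt5, Cdh1 and Epcam did not reach well above background. Krt14, well above background in OS alone, was at least 1.16-fold lower. The 11 measured dental mesenchyme markers had a median log2 ratio of 0.22, with 9 above 0 (7 with normexp correction, median 0.10). Over all genes 57.6% lay above 0, and the all-gene median was 0.09 with normexp correction. Over the 9 brighter mesenchyme markers the median was 0.02. What part these cells have in the ratios of the 9 genes was not tested.

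The ratios were also computed under 11 other ways of processing the arrays. The 3 alpha subunits, Plod1, Plod2 and Serpinh1 kept a ratio below 0 in all of them, and Loxl1 and Loxl2 a ratio above 0. Loxl1 ran from 0.35 to 0.41 and Plod1 from -0.36 to -0.31. Serpinh1 ran from -0.31 to -0.13, the value farthest from 0 being that with normexp background correction. Plod3 turned to -0.08 with that correction, so its direction is uncertain.

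**Figure D4:**
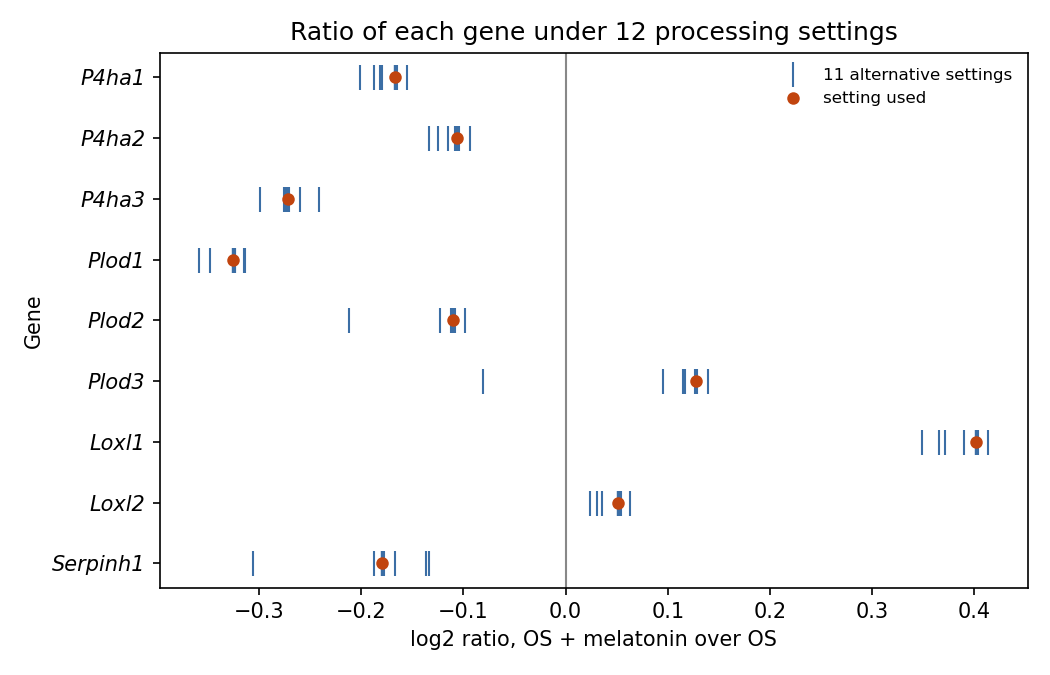
Log2 ratio of the 9 genes under the setting used (circles) and 11 alternative settings (ticks), many of which coincide. Ticks of 8 genes stay on one side of 0, and 1 tick of Plod3, from normexp background correction, crosses it at -0.08.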

How the data were processed

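Total RNA was labelled with Cy3 and hybridised to 1 array per group, per the labels' protocols. Per the file headers, the deposited intensity of each spot came from Agilent Feature Extraction 11.0.1.1 (array design 028282, annotation build rn4), with background subtraction and spatial detrending and no normalization between arrays. The authors' deposited table of log2 values correlated with log2 of the scanner signal at 0.9997 and 0.9988 across probes, with no description of its normalization in the sources used here. It served as an alternative.

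Outlier spots flagged on either array were left out (937 of 42877). Log2 processed signals were averaged over the spots of a probe and centred on the array's 75th percentile. A gene's value is the mean of its probes that both arrays read well above background. Symbols came from RefSeq accessions in a table of assembly GRCr8, used for names alone; 18000 of 30359 probes (59.3%) received one. The fold threshold was 1.5. For a gene above background on 1 array, a bound was set against the lowest signal well above background on the other. Where the gene's own signal on that other array was higher, as for Tyrobp, that signal was used. A probe brighter than that lowest signal can still miss the flag, so these bounds are approximate.

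Genes named from the lists were those past 1.5-fold or, in lists without one, the highest and lowest ratio. In the lists of partners, substrates, ascorbate supply and hypoxia up to 6 more were named by role, and exceptions are stated. Further genes were named where genes of the same kind went different ways. The genes and lists were chosen with earlier results of these data known. The steps were tested on simulated arrays. Calculations used Python 3.11.15, pandas 2.3.3, statsmodels 0.14.6 and scipy 1.17.1.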

Additional observations from a re-analysis of the deposited data

How the results depend on the processing

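The limits of these values are the number of arrays, 1 per group, and the single spot behind each of the 9 genes. In all 11 alternatives the median of the 9 genes stayed below 0 (-0.19 to -0.10), and none of the 9 passed 1.5-fold. Several of these alternatives could not change the ratio of a gene read by 1 bright spot. Plod3 at -0.08 with normexp (offset 50, on the median spot signal in place of the mean) was the 1 ratio among the 9 genes that moved by more than its spot SD. Genes of the other lists were not counted in this, and some moved further with normexp, such as Cd68 (-0.61 to -0.13) and Efemp2 (0.25 to -0.01). At the 25% threshold 1 of the 9 genes was higher and 1 lower. Plod1 lies near that threshold and falls inside it with the median of detected probes and with the authors' values, at -0.31 in both. In the 8 lists the genes higher by the threshold, 1 in the main setting, were 6 at 25%, 0 at 2-fold, 2 with the median of detected probes, 5 with no filter on dim probes and 4 with the software's looser detection flag. The genes lower, 2 in the main setting, were 8 at 25% and 0 at 2-fold. Over all genes the calls at 1.5-fold, 167 higher and 217 lower, were 116 and 249 with loess, 89 and 158 with normexp, 101 and 147 with the dimmest quartile of genes left out, 1154 and 520 with the looser flag and 4540 and 731 with no filter. The median of all genes moved from 0.04 to 0.16 with no filter on dim probes and to 0.09 with normexp. The share of genes below 0 was 42.4% in the main setting and 33.3% with normexp, so counts by sign differ in their baseline. No paired analysis was possible because each group has 1 array and no test was run.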
